A study of Mus musculus with 32 samples.

Results

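The 8 genes described here make, move, sense or remove sphingosine-1-phosphate (S1P), and they were taken by symbol from a table of 38738 gene symbols measured in the mouse subventricular zone, the germinal layer that lines the lateral ventricles of the forebrain. They comprised 4 receptors (S1pr1, S1pr2, S1pr3 and S1pr5), both sphingosine kinases (Sphk1 and Sphk2), the S1P lyase Sgpl1 and the S1P exporter Spns2. S1P is a signalling lipid formed when a sphingosine kinase phosphorylates sphingosine inside the cell. Spns2 carries it across the plasma membrane, and outside the cell it acts on a family of G protein-coupled receptors. Lipid phosphatases return it to sphingosine, and the lyase cleaves it irreversibly. In the nervous system the pathway is known for the vascular barrier role of endothelial S1pr1, for S1pr1 in astrocytes and for S1pr5 in the oligodendrocyte lineage.

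The samples were 28 libraries of 1 cell each and 4 libraries of 10 cells each, all from subventricular zone at postnatal day 21. The labels give no strain, genotype, treatment or cell sort and tie no cell to an animal, so the 28 cells were treated as 1 sample and no difference between cells was tested. The 4 pools are replicates by their label alone, and their spread may be technical. The study's title concerns signals that activate dormant neural stem cells. Values are FPKM, fragment numbers scaled by transcript length and by the mapped fragments of the library, so that levels of different genes can be compared per length. A gene was counted as found in a library at FPKM of at least 1.

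Because the labels name no cell types, each cell was placed by whichever of 13 marker lists had the highest mean log2(FPKM + 1) in it, and none of the 8 S1P genes was in any list. Endothelial markers led in 8 cells (1, 2, 3, 6, 7, 8, 16 and 17), oligodendrocyte markers in 3 (4, 12 and 13), astrocyte markers in 2 (11 and 14), ependymal markers in 3 (9, 10 and 15), choroid plexus markers in 1 (5), microglial markers in 4 (18 to 21) and neuroblast markers in 7 (22 to 28). Cell 10 was weakly placed, with an ependymal mean of 3.95 against 3.32 for neural stem cell markers. Cell 3 also had 9 of 12 microglial markers, and cell 21 had 7 of 11 neuroblast markers. Cell 12 also had 7 of 13 astrocyte markers, with Gfap at 30 FPKM, and the endothelial marker Cldn5 at 37.2 FPKM. Cell 22, with 9 of 11 neuroblast markers, had 11 of 12 microglial markers and a Dcx of 0.0582 FPKM. Cells 18 to 22 and cells 23 to 28 formed library sets whose members repeated one another's most abundant genes at a low level, for at least 97.6% and 94.3% of such genes, against a median of 62.6% between the other cells. Whether values in these 11 cells include RNA of another library was not tested. Depth could be estimated only where single fragments gave a clear step, which was so in 13 of cells 1 to 17 (about 6170000 to 20900000 fragments, median 14800000). At that median an FPKM of 1 stands for about 45.1 fragments of S1pr1. An exact 0 can be a failed estimate as well as a lack of reads (all 32 libraries list the mitochondrial gene mt-Co1 at 0), and the wording listed at 0 is used for such values.

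S1pr1 had the highest mean level of the 8 genes over the 28 cells, and it was high in cells led by endothelial and astrocyte markers. It was found in 10 of 28 cells (35.7%, exact Clopper-Pearson 95% interval 18.6 to 55.9%, here and below covering counting error only). In the 8 cells led by endothelial markers its FPKM ran from 0 in cell 1 through a median of 45.7 to 751 in cell 8, and 7 of the 8 passed the threshold. In the 2 cells led by astrocyte markers it was 912 (cell 11) and 734 (cell 14), so cell 8 was the only other cell in that range. Cell 12, led by oligodendrocyte markers, had 24.2. In the 3 cells led by ependymal markers S1pr1 lay between 0.162 and 0.752 FPKM, and it was listed at 0 in all of cells 18 to 28, where the depth is not clear. The distance between the lowest found value, 13.98, and the highest value below the threshold, 0.752, meant that any threshold between them gave the same 10 cells. The gene lies on chromosome 3 at 115710433 to 115715055, minus strand (GRCm38), and no annotated gene overlaps it.

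S1pr1 was set beside genes that mark vessels, cilia and stem cells. Of the 10 cells with S1pr1, 7 also had Flt1, a vascular endothelial growth factor receptor and one of the endothelial markers used, and 7 had Prom1, a membrane protein used as a stem cell surface marker. These were the same 7 cells, all led by endothelial markers. Gfap, an intermediate filament of astrocytes, was found with S1pr1 in cells 11 and 12. Nes, an intermediate filament of progenitors and of growing vessels, was found with it in 6 cells. No cell had S1pr1 together with Foxj1, a regulator of motile cilia, or with Dcx, a microtubule protein of migrating neuroblasts. Foxj1 was found in only 4 cells. Dcx was found only in cells 21 and 23 to 28, which lie in the library sets, where S1pr1 was listed at 0 and depth was not clear. Neither absence can therefore be read as exclusion by cell type.

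S1pr5 was found in 3 cells, and these were the 3 led by oligodendrocyte markers. Its FPKM was 153 in cell 4, 71.9 in cell 12 and 95.6 in cell 13. The highest value in any other cell was 0.279, in cell 6, so the groups were far apart. A share of 3 of 28 cells is 10.7% (95% interval 2.27 to 28.2%). The gene lies on chromosome 9 at 21242912 to 21248443, minus strand. Of the 17924 symbols found in cells 1 to 17, 1.66% were higher in all 3 of these cells than in each of the other 14, and S1pr5 was the only one of the 8 S1P genes to do so. Spns2, the exporter, was also found in all 3 cells, but it reached the same range in cells led by endothelial markers.

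The promoters of S1pr5 and Spns2 are shown because these 2 genes were found together in all 3 cells led by oligodendrocyte markers. Each line gives the 250 bases before the RefSeq start (GRCm38.p6), 5′ to 3′ on the gene's minus strand, with CG pairs in capitals.
S1pr5 promoter, chr9:21248444-21248693: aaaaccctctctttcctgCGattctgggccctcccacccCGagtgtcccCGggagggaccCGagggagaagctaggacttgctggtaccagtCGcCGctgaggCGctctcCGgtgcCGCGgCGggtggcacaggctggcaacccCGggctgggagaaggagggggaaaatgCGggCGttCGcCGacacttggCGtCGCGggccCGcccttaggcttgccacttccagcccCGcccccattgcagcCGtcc
Spns2 promoter, chr11:72475028-72475277: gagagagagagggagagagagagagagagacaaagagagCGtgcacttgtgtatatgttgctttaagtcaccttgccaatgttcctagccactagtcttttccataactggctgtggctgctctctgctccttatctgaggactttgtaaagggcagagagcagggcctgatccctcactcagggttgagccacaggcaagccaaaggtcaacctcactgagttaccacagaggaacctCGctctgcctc
The S1pr5 window held 22 CG pairs and 69.2% G or C. The Spns2 window, whose RefSeq start lies inside the longer deposited locus, held 2 CG pairs and 51.6% G or C. Over 32851 such windows the medians were 6 CG pairs and 52.4%. The letters ACAAT, the core bound by Sox factors, occurred on either strand in neither window and in 27.7% of all windows. These windows are described as sequence only, since no data here measured binding or methylation.

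S1pr2 and S1pr3, receptors that couple to several G protein families, were rare. S1pr2 lies on chromosome 9 at 20965952 to 20976793, minus strand, and S1pr3 on chromosome 13 at 51408618 to 51422797, plus strand. S1pr2 was found in 2 cells (7.14%, interval 0.877 to 23.5%). Its FPKM was 94.7 in cell 10 and 4.76 in cell 13, and cell 10 alone held 95.1% of the summed level. S1pr3 was found in cell 12 alone, at 31.1 FPKM (3.57%, interval 0.0904 to 18.3%). With 1 or 2 cells, no pattern across cell types can be read for either gene. S1pr4, the family member known mainly from blood and lymphoid cells, was not among the 8 genes. It was highest at 78.9 FPKM in cell 3, an endothelial-led cell that also had microglial markers. In all 4 cells led by microglial markers it was below 1. It was also found in cells 13 (1.16 FPKM), 23 (1.69) and 26 (1.67), and in pool 3 (8.18).

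**Figure D1:**
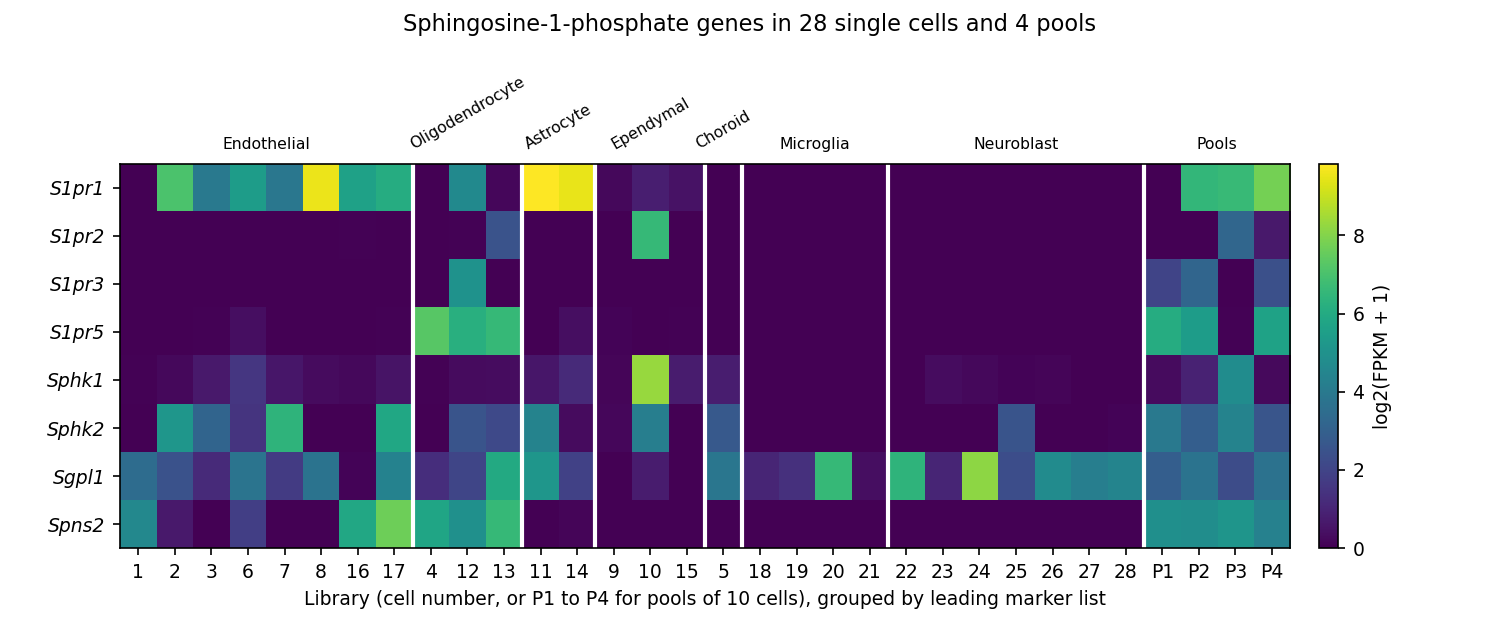
Level of each S1P gene (rows) in every library (columns) as log2(FPKM + 1), with cells grouped by leading marker list and the 4 pools at the right. S1pr1 is bright in cells led by endothelial and astrocyte markers and S1pr5 in cells 4, 12 and 13, while cells 18 to 28 show almost no S1P gene except Sgpl1.

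Most cells carried at most 1 of the 4 receptors. Of cells 1 to 17, 4 had none, 11 had 1, and 2 had more. Cell 12 had S1pr1, S1pr3 and S1pr5, and cell 13 had S1pr2 and S1pr5. Cell 12 also had astrocyte markers and Cldn5, and whether its library held RNA of more than 1 cell was not tested. None of cells 18 to 28 had any of the 4. These cells had 2107 to 5056 symbols of any kind found, against 3061 to 10169 in cells 1 to 17. S1pr1 and S1pr2 shared no cell. S1pr2, S1pr3 and S1pr5 were found in only 2, 1 and 3 cells, so few cells could have had more than 1 receptor. These counts therefore do not show that the receptors avoid one another.

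Sphk1 and Sphk2, which both phosphorylate sphingosine, differed in the number of cells in which they were found, but the order depended on the threshold. At FPKM of at least 0.1, Sphk1 was in 16 cells and Sphk2 in 13. Sphk1, the largely cytosolic enzyme, was found in 3 cells, at 316 FPKM in cell 10, 1.96 in cell 6 and 1.24 in cell 14. Cell 10 held 97.4% of its summed level, and 22 cells lay between 0 and 1. The same cell had the highest S1pr2. Sphk2, the isoform also found in the nucleus and mitochondria, was found in 11 cells (39.3%, interval 21.5 to 59.4%). In the 8 cells led by endothelial markers Sphk2 ran from 0 through a median of 4.93 to 82.8 FPKM in cell 7, and 5 of the 8 passed. The other high values were 56.8 in cell 17, 35.3 in cell 2, 19.9 in cell 11 and 17.6 in cell 10. Among cells 18 to 28 it was found only in cell 25, at 4.89 FPKM. In every leading list with at least 2 cells, some cells had Sphk2 below 1.

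Sphk2 lies on chromosome 7 at 45709467 to 45718002, minus strand, and overlaps Dbp, a circadian transcription factor, and Rpl18, a ribosomal protein gene, both on the plus strand. Strand use in counting is not given in the sources used here, so reads of Sphk2 and its neighbours may not be separable. Dbp was found in 6 of the 11 cells with Sphk2 and in none of the other 17, and their Spearman correlation over the 28 cells was 0.704. Rpl18 was found in all 28 cells, and its correlation with Sphk2 was 0.209. The part of Dbp reads in the Sphk2 values was not tested. Sphk1, on chromosome 11 at 116530925 to 116536674, plus strand, overlaps the antisense gene Gm29292, which has no value here.

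Sgpl1, the lyase that removes S1P from the pathway, was found in more cells than any other of the 8 genes, 23 of 28 (82.1%, interval 63.1 to 93.9%). Its levels were modest: the median over cells was 4.27 FPKM and the highest 288, in cell 24. In the 7 cells led by neuroblast markers it ran from 1.05 through a median of 20.8 to 288 FPKM, and all 7 passed. Without cell 22, which had 82.2 FPKM, the range was the same and the median 19.2. In the 8 led by endothelial markers the range was 0.0665 to 19.4 with a median of 7.32. In the 4 led by microglial markers the FPKM was 1.04, 1.58, 96.4 and 0.285 in cells 18 to 21, so cell 20 stood apart. The 3 cells led by ependymal markers were all below 1 (highest 0.684). In cells 18 to 28 Sgpl1 was found in 10 of 11. When values under 2% of the highest in each library set were put at 0, this became 6 of 11, with 5 of 7 neuroblast-led and 1 of 4 microglia-led cells. Sgpl1 lies on chromosome 10 at 61098642 to 61147703, minus strand.

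Spns2 was found in 7 cells (25%, interval 10.7 to 44.9%), all led by endothelial or oligodendrocyte markers. Among the endothelial-led cells it was 202 FPKM in cell 17, 58.2 in cell 16, 22.9 in cell 1 and 2.52 in cell 6, and the other 4 were below 1. In the oligodendrocyte-led cells it was 95.9 in cell 13, 54.0 in cell 4 and 29.6 in cell 12. The 2 ranges overlapped. Both astrocyte-led cells, which were high in S1pr1, were at or below 0.0884. Spns2 lies on chromosome 11 at 72451638 to 72489904, minus strand. It overlaps Mybbp1a, which encodes a MYB-binding protein, on the opposite strand, and their correlation over cells was -0.122.

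**Figure D2:**
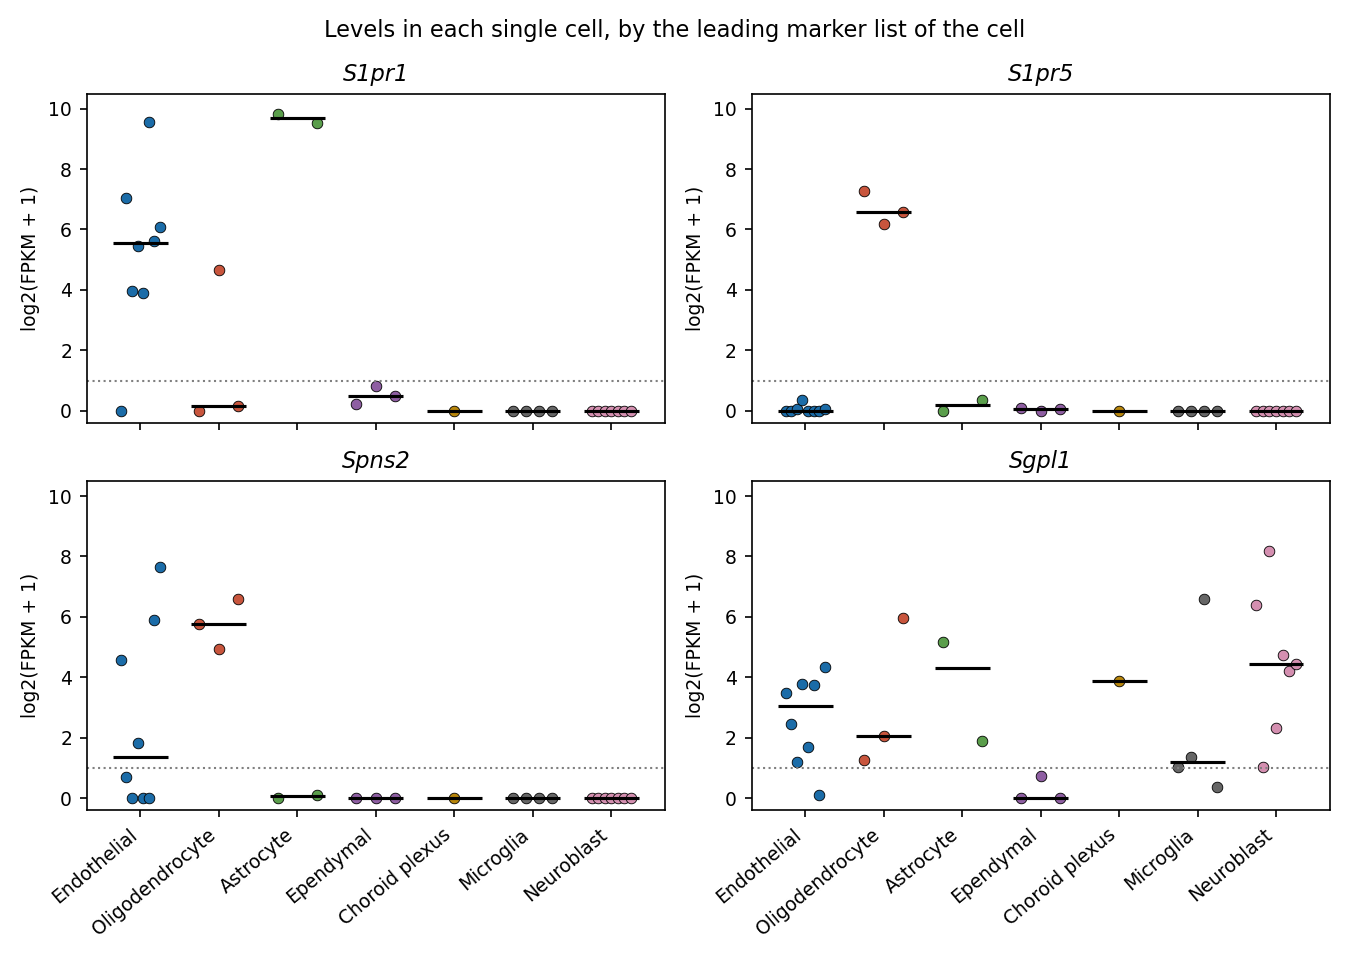
Level of S1pr1, S1pr5, Spns2 and Sgpl1 in each single cell as log2(FPKM + 1), by the leading marker list of the cell; bars are medians and the dotted line is an FPKM of 1. S1pr5 separates the 3 oligodendrocyte-led cells from the rest, and Sgpl1 is present in every neuroblast-led cell.

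Ordered by mean FPKM over the 28 cells, S1pr1 (97.9) was followed by Sgpl1 (25.7), Spns2 (16.6), Sphk1 (11.6), S1pr5 (11.5), Sphk2 (8.64), S1pr2 (3.56) and S1pr3 (1.11). The spread over cells was large: the SD was 250 for S1pr1 and 57 for Sgpl1, and no gap between neighbours in this order exceeded the SD of the higher gene. The SD was 59.7 for Sphk1, 43 for Spns2 and 35.5 for S1pr5. The place of Sphk1 rested on cell 10, without which its mean was 0.315 FPKM. Of all symbols found in at least 1 cell, 56.8% were found in at least 5; 4 of the 8 S1P genes (S1pr1, Sphk2, Sgpl1 and Spns2) were.

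Of the 28 possible pairs of the 8 genes, 8 were found together in at least 3 cells and 4 in none. Of all pairs of symbols found in at least 1 cell, 31% were found together in at least 3, so the S1P genes were near the background. Sgpl1 alone was in 23 of 28 cells. Sphk2 and Sgpl1, the making and removing enzymes, shared 10 cells, S1pr1 and Sgpl1 shared 9, and S1pr1 and Sphk2 shared 7. S1pr5 shared its 3 cells with both Spns2 and Sgpl1. Cells 9, 15 and 21 had none of the 8 genes, and cell 12 had 6. Of all symbols, 6961, 5236 and 2424 were found in cells 9, 15 and 21, and 9078 in cell 12.

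In cells 1 to 17, which lie outside the library sets, the 8 endothelial-led cells were set against the other 9. S1pr1 had a mean log2(FPKM + 1) of 5.20 ± 2.77 (SD over 8 cells) against 2.86 ± 4.13 (SD over 9 cells), a difference of 2.35. On mean FPKM the sign turned (log2 ratio -0.47), a scale on which the 2 astrocyte-led cells weigh most. The difference was 0.92 for Sphk2 and 0.64 for Spns2, and it was -2.22 for S1pr5 and -1.02 for S1pr2. Of the 8 genes, 1 was higher by at least 1 (11.1% of all 17924 symbols were) and 2 were lower by at least 1 (27.6% of all). The median difference was -0.15 for the S1P genes and -0.36 for all symbols. The S1pr1 difference kept its sign when each of the 17 cells was left out in turn (1.73 to 3.22). That of S1pr2 rested on cells 10 and 13 and was -0.33 without the former and -0.83 without the latter.

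The 4 pools each contained several S1P genes: 5 in pool 1 and 6 in each of the others. Pools found more symbols of any kind, 10477 to 12869 each, against a median of 4986 (2107 to 10169) in the single cells. S1pr1 was listed at 0 in pool 1 and was 89.2, 98.9 and 220 FPKM in pools 2, 3 and 4, a mean of 102 ± 90.4 (SD, n = 4). In the pools, fewer cells of a type and less RNA per cell cannot be told apart. Endothelial markers were low in pools 1 and 4 (mean log2 0.826 and 1.17) and high in pools 2 and 3 (7.88 and 8.52), and astrocyte markers were highest in pool 4 (6.76). Pool 1, where S1pr1 was listed at 0, was low in both lists, with an astrocyte mean of 1.56. S1pr5 was 67.5, 42.7, 0.0306 and 49.6 FPKM in pools 1 to 4, and its near absence fell in pool 3, where oligodendrocyte markers were lowest (1.33, against 6.53 to 9.36 in the others). Whether these makeup differences set the values was not tested.

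Spns2, Sgpl1 and Sphk2 were found in all 4 pools, as were 18.1% of all 38738 symbols. Spns2 was 28.6, 27.3, 33.6 and 18.9 FPKM (27.1 ± 6.08, SD, n = 4). Sgpl1 was 6.75, 12.5, 3.89 and 12.2 (8.84 ± 4.22), and Sphk2 was 14.7, 6.71, 20.1 and 5.01 (11.6 ± 7.06). S1pr3 was 3.06, 8.25, 0 and 4.29, so it was found in 3 of 4 pools but in 1 of 28 cells. Each pool also found more symbols of any kind than any single cell. S1pr2 and Sphk1 were both highest in pool 3, at 8.43 and 26.7 FPKM, and no other pool reached 1 for either.

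**Figure D3:**
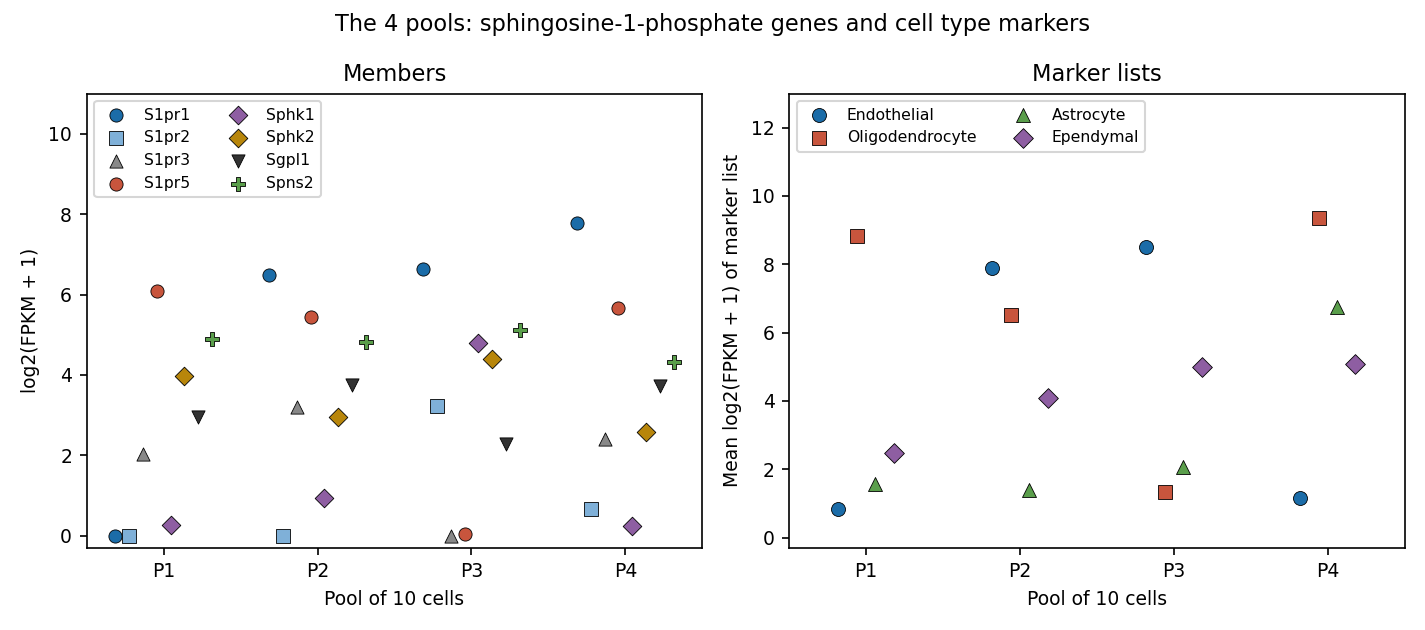
The 8 S1P genes (left, log2(FPKM + 1)) and the mean log2(FPKM + 1) of 4 marker lists (right) in each pool of 10 cells. S1pr1 is at 0 in pool 1 and S1pr5 near 0 in pool 3, and endothelial markers are low in pools 1 and 4.

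Pools and cells were compared as the log2 ratio of mean FPKM, with 1 added to each mean. The ratio was 0.06 for S1pr1, 1.22 for S1pr3, 1.71 for S1pr5, 0.39 for Sphk2, -1.44 for Sgpl1 and 0.67 for Spns2. Over the 4 pools taken singly the SD of the ratio was 3.54 for S1pr1 and 2.86 for S1pr5, larger than the ratios themselves. The same held for S1pr3 (SD 1.37) and Sphk2 (0.85), while the SD was 0.70 for Sgpl1 and 0.34 for Spns2. This SD covers the pools only and leaves out the spread over the single cells (SD of 57 FPKM for Sgpl1 and 43 for Spns2). It is therefore not the error of the ratio. The mean of S1pr3 over cells came almost wholly from cell 12, which held 99.9% of its sum. The ratios of Sphk1 (-0.66) and S1pr2 (-0.48) rested on cell 10: without it they were 2.60 and 1.46. That of Sphk1 fell to -3.13 without pool 3. Of the 8 genes, 2 (S1pr3 and S1pr5) were higher in pools by at least 1 (12.9% of 19781 symbols were) and 1 (Sgpl1) was lower by at least 1 (13.9% were). S1pr3 came to 0.71 without pool 2 and 2.29 without cell 12. When cells 18 to 28 were left out, S1pr3 came to 0.79, below the limit of 1, and S1pr5 to 1.04. S1pr2 and Sphk1 then came to -1.07 and -1.33, past that limit. The negative ratio of Sgpl1 came to -0.79 without cell 24 and to -0.24 when cells 18 to 28 were left out. Spns2 came to 1.38 without cell 17 and to -0.02 when cells 18 to 28 were left out. S1pr1 turned to -0.63 without pool 4. The pools had little neuroblast RNA, with 1 to 3 of 11 markers found. The median over the 8 genes was 0.23, against 0.06 for all symbols.

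Over the 28 cells, the genes most like S1pr1 were Apold1 (Spearman correlation 0.894), an early response gene of vascular endothelium, Snrk (0.865), a protein kinase, and Sparcl1 (0.864), a secreted matrix protein. Those most like Spns2 were Gm16192 (0.798), Pllp (0.791), a membrane protein of myelin, and Abhd17b (0.767). Sphk2 was closest to Parva (0.755), Gm13977 (0.754) and Atp5j (0.752), and Sgpl1 to Wdr12 (0.611), Unc13d (0.606) and Pbld1 (0.599). The points share library sets and depth, and 11 of the 28 are cells in which S1pr1 was listed at 0. Within cells 1 to 17 the S1pr1 and Sphk2 names were entirely different ones, and Spns2 alone kept Gm16192 and Pllp.

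Of 58 other genes of sphingolipid metabolism, carriers, related receptors and their G proteins, 53 were found in a cell, 51 in a pool and 30 in all 4 pools. Of all 38738 symbols, a count that includes noncoding genes, 48.7% were found in a cell, 44.1% in a pool and 18.1% in all 4 pools. Among the phosphatases that reverse S1P, Ppap2b (now Plpp3) reached 948 FPKM in cell 11 and was found in 7 cells. They were both astrocyte-led cells, 2 endothelial-led, 2 ependymal-led and 1 oligodendrocyte-led. Sgpp1, an S1P phosphatase of the endoplasmic reticulum, was found in 11 cells. These included all 3 oligodendrocyte-led cells and all 4 microglia-led cells, but only 2 of the microglia-led cells under the 2% limit. Asah1, a lysosomal ceramidase that frees sphingosine, was found in 13 cells, among them all oligodendrocyte-, astrocyte- and ependymal-led cells. Cers2, a ceramide synthase for very long acyl chains, was highest at 1029 FPKM in cell 13. Degs2, a ceramide desaturase and hydroxylase, was found in 7 of 8 endothelial-led cells and reached 1322 in cell 1. Of the other cells, it was found in 1 ependymal-led and 3 of 4 microglia-led cells (2 of 4 under the 2% limit).

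Among the carriers, Mfsd2a, a lysolipid transporter of brain endothelium, and Abcg2, an efflux pump, were found in 8 of 8 endothelial-led cells. They were not limited to these: Mfsd2a was found in 11 cells in all and Abcg2 in 14. The 14 included 3 of 4 microglia-led cells, or 1 of 4 under the 2% limit. Lpar1, a receptor for the related lipid lysophosphatidic acid, was found in all 3 oligodendrocyte-led cells and 1 ependymal-led cell. It reached 272.7 FPKM in cell 4. Ugt8a, which makes galactosylceramide, was found in the 3 oligodendrocyte-led cells and no other, but it is one of the markers that placed them. Gnai2, a G protein subunit through which S1pr1 acts, was found in 27 cells, and in 22 under the 2% limit. Cers3, Spns3, Lpar2 and Lpar5 were found in no library. Between pools and cells, 9 of 54 genes with a ratio were higher by at least 1 and 4 lower, against 12.9% and 13.9% of all symbols. The median was 0.17, against 0.06 for all. Between endothelial-led and other cells, 9 of 53 were higher by at least 1 and 22 lower, against 11.1% and 27.6% of all symbols. The median was -0.56, against -0.36 for all.

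**Figure D4:**
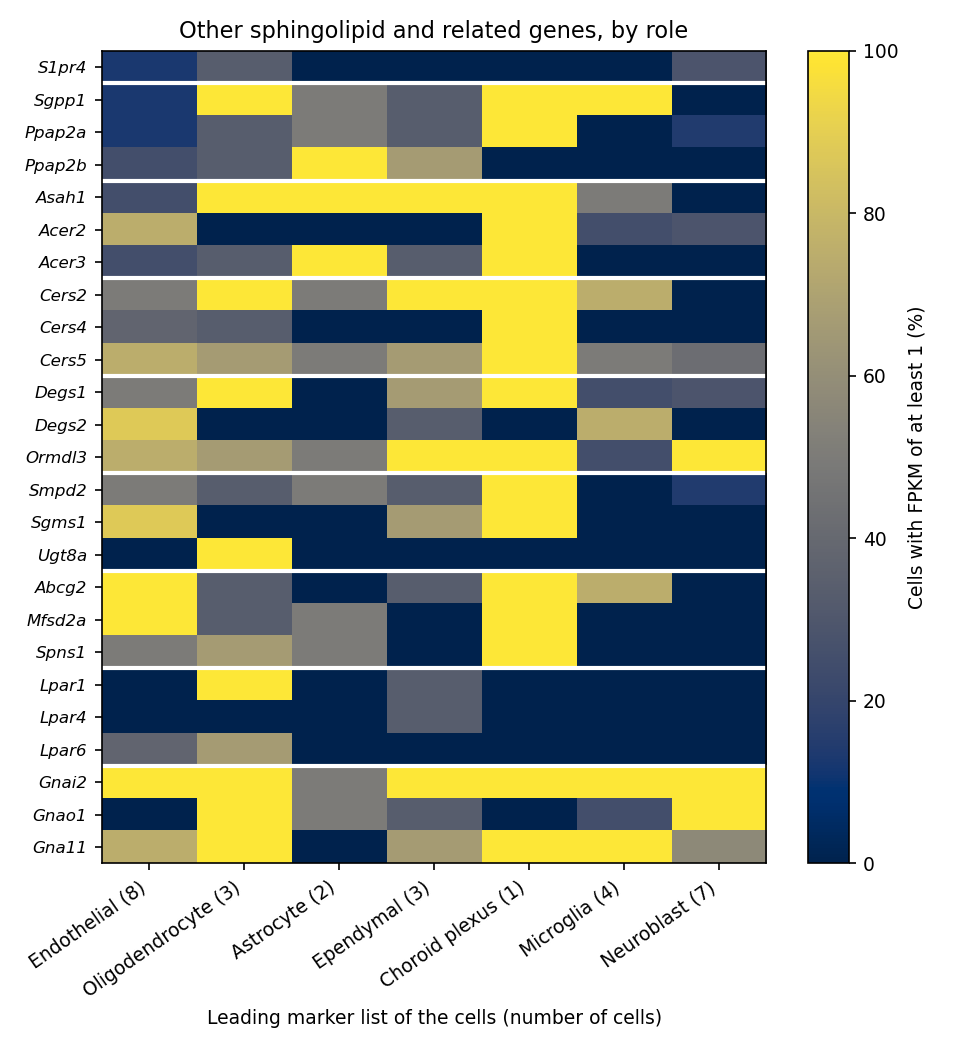
Share of cells (%) in which each named gene of the wider list was found, by the leading marker list of the cell, with the number of cells in brackets and white lines between roles. Mfsd2a and Abcg2 reach 100% in endothelial-led cells and Lpar1 and Ugt8a in oligodendrocyte-led cells.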

How the data were processed

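RNA was measured in 28 single cells and 4 pools of 10 cells. The submitters' processing notes name TopHat 1.41, Cufflinks 2.02 and build mm9. The values are gene FPKM, computed by the authors and deposited as 1 table. Its loci match GRCm38: 96% of 39011 lines carry a GENCODE M21 gene ID, and 99.7% of those overlap the GRCm38 gene. The annotation release, strand setting and read layout were not given in the sources used here.

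Symbols listed on several lines were summed, and no count test was possible. The deposited FPKM were compared as log2(value + 1), which understates the change of a low gene, with Python 3.11.15, numpy 2.4.6, pandas 2.3.3, scipy 1.17.1 and matplotlib 3.10.9. The steps were tested on simulated data. No doublet caller was run. Library sets joined cells in which genes at FPKM of at least 500 in one were above 0 but under 5% of that in the other, both ways, for at least 80% of such genes. Depth assumed a fragment of 200 bp and accepted a step clear by a factor of 2. Intervals of shares are exact (Clopper-Pearson, 95%).

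The named genes are the 8 members, the 3 most abundant of each role of the wider list and those found in no library, and, for members found in at least 5 cells, the 3 most correlated genes. The members, lists and rules were chosen with earlier results of these data known. The oligodendrocyte comparison, the promoters and their motif, the factor of 2 and the leaving out of single cells, other than the endothelial-led ones in their comparison, were chosen after seeing the data. Promoter sequences are from RefSeq (GRCm38.p6), whose table held 7 of the 8 members, not S1pr1.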

Additional observations from a re-analysis of the deposited data

Results flagged for a closer look

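In 2 of 8 genes tested over the 4 pools, 1 pool stood far from the other 3. Its gap, relative to the whole range, was above Dixon's 95% critical value. Chance passes that limit in about 1 in 20 groups of normally distributed values. For raw FPKM, which is skewed and often near 0 here, the rate is not known. In both genes it was pool 3: S1pr2 at 8.43 FPKM against 0, 0 and 0.599, and Sphk1 at 26.7 FPKM against 0.207, 0.925 and 0.18. Cell 10 had the highest single-cell value of both genes, at 94.7 and 316 FPKM.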

How the results depend on the processing

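No paired analysis was possible because cells and pools share only numbers and no test was made. Of 480 alternative values of the pool ratios and endothelial differences, 16 had the opposite sign to the reported value. Most of these alternatives only left out 1 library, and there 3 of 256 pool ratios and 3 of 136 endothelial differences turned. Among the other alternatives, 6 of 48 pool ratios and 4 of 40 endothelial differences turned. For counts of cells, 53 of 64 alternatives stayed within 1.5 times. The cause of the other shifts was not tested. Some of the 64 could not change a count. Each gene had a single line, so taking the largest line per symbol left its count as it was. S1pr1, S1pr2, S1pr3, S1pr5, Sphk1 and Spns2 were found in none of cells 18 to 28. Leaving those cells out, or the 2% limit, could therefore not alter their counts. Raising the threshold to 5 or 10 FPKM left S1pr2 in 1 and 1 cells and Sphk1 in 1 and 1. Sphk2 was then in 7 and 5, and Sgpl1 in 13 and 13. Lowering the threshold to 0.1 gave S1pr5 in 5, Sphk1 in 16 and Sphk2 in 13. Without cells 18 to 28 Sgpl1 was in 13. Pairs of genes in at least 3 cells were 8, 15 at 0.1 and 5 at 10 FPKM. With the mean of log values the pool ratio was 2.83 for S1pr1, 1.73 for S1pr3, 3.56 for S1pr5, 2.0 for Sphk2 and 3.42 for Spns2, and it turned sign for S1pr2 (0.65), Sphk1 (0.94) and Sgpl1 (0.24), while the median of all symbols itself moved to 0.95. Sgpl1 was -3.30 at the same upper quartile and -0.24 without cells 18 to 28, where S1pr1 was -0.65, Sphk2 -0.24 and Spns2 -0.02. Without those cells S1pr2 was -1.07, S1pr3 0.79, S1pr5 1.04 and Sphk1 -1.33. On mean FPKM the endothelial log2 ratio was -0.47 (reversed) for S1pr1, -0.68 for Sgpl1, -3.59 for S1pr2, -2.16 for S1pr3, -5.13 for S1pr5 and -4.60 for Sphk1. Of all symbols, 6.6% were higher and 7.1% lower in pools with no filter, and 17.5% lower at FPKM of at least 10. Of the 3 most similar genes, S1pr1 and Sphk2 kept 0 under Pearson correlation and 0 over cells 1 to 17, Sgpl1 kept 1 and 0, and Spns2 kept 1 under Pearson. Leaving out each pool or cell in turn, most cells being left out as an alternative chosen after seeing the data, the pool ratio ran from -0.63 to 0.58 for S1pr1, -1.93 to 1.46 for S1pr2, 0.71 to 2.29 for S1pr3, 1.35 to 2.50 for S1pr5, -3.13 to 2.60 for Sphk1, 0.03 to 0.88 for Sphk2, -1.63 to -0.79 for Sgpl1 and 0.56 to 1.38 for Spns2. Leaving out each of the 17 cells, the endothelial difference ran from 1.73 to 3.22 for S1pr1, -1.15 to -0.33 for S1pr2, -2.51 to -1.60 for S1pr5, 0.40 to 1.31 for Sphk2, -0.02 to 0.72 for Sgpl1 and -0.08 to 1.22 for Spns2, and those of S1pr3 and Sphk1 came to 0 without cell 12 and cell 10. Depth was not clear in the pools or in cells 18 to 28, so no counting error can be set on their low FPKM.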
